A study of Mus musculus with 19 samples.

Results

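Mammalian complex I, the NADH:ubiquinone oxidoreductase of the mitochondrial inner membrane, is built from subunits encoded in the nucleus and subunits encoded in mitochondrial DNA. Its N module oxidises NADH, its Q module passes the electrons to ubiquinone, and its membrane arm, with a proximal and a distal part, pumps protons. Skeletal muscle fibres are rich in mitochondria, and cultured myoblasts gain oxidative capacity as they differentiate and fuse. The members were all protein-coding genes of the GENCODE M21 annotation with a symbol made of Nduf, 1 of the letters a, b, c, s or v or the pair ab, and a number. They were 37 of the 35598 genes of the annotation that had a listed transcript, and all 37 were among the 15123 genes tested. By their place in the complex they comprised 10 genes of the N module, 6 of the Q module, 9 of the proximal and 10 of the distal membrane arm, and Ndufab1, the mitochondrial acyl carrier protein. The last member, Ndufa4, carries the family name but its product belongs to cytochrome c oxidase (complex IV). The rule did not take in Ndufb1-ps, the mouse locus of the distal subunit Ndufb1. Its symbol does not end in a number, and the annotation types it as a long non-coding RNA. Nor did the rule take in the assembly factors, whose symbols begin with Ndufaf.

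The 19 libraries held messenger RNA of primary myoblasts from mouse hind-limb muscle, labelled wild type (WT) or Glud1-deficient (Glud1KO), with Glud1 coding for the mitochondrial glutamate dehydrogenase. Dividing myoblasts kept in growth medium were sampled at 24 h (3 WT and 3 Glud1KO libraries), differentiated myotubes at 48 h (3 and 2), and fused myotubes at 72 h (4 and 4). No allele, Cre driver, strain, age or sex is named in the labels, nor the animal or culture behind a replicate, so SDs and p-values measure only the spread between these libraries, which may be technical. Names of the deposited files use another code, with KO for the WT-labelled libraries and KOT for the Glud1KO-labelled ones. What these codes stand for is not given in the sources used here, and the labels were followed.

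Libraries held 16168131 to 30742634 estimated counts, and the common biological coefficient of variation was 4.03%. CPM below is a gene's count as a share of the scaled library total, so that it can be compared between libraries but not between genes of unequal length, and TPM is the per-length abundance. Glud1 was at 192, 191 and 184 CPM in WT and 190.0, 185 and 186 CPM in Glud1KO-labelled myoblasts, at 112, 102 and 104 against 103 and 96.6 CPM at 48 h, and at 133, 141, 136 and 131 against 132, 131, 139 and 130.2 CPM at 72 h. Total Glud1 RNA therefore did not separate the labels (edgeR quasi-likelihood log2 fold changes -0.016 ± 0.039, -0.087 ± 0.047 and -0.023 ± 0.036, adjusted p = 0.849, 0.193 and 0.748), and with an offset for effective transcript length it was lower in the Glud1KO-labelled libraries, with values of -0.26, -0.31 and -0.34 (adjusted p = 0.000708, 0.000244 and 1.58e-05). The direction of each genotype comparison rests on these labels. The 9 myogenic markers summed to 1927.9 to 2578.1 CPM in myoblasts and to 34106 to 39524 CPM at the later stages. Markers of other cells were low: 5 fibroblast genes summed to at most 7.35 CPM (Dpt at 0 throughout), and the 4 endothelial, 4 leukocyte, 3 Schwann and 3 adipocyte genes to at most 1.25, 1.78, 2.70 and 0.0704 CPM. The 3 pericyte and smooth muscle genes summed to 31.3 to 41.0 CPM in myoblasts, nearly all of it Rgs5, and to at most 1.89 CPM later. Fewer cells of a type and less RNA per cell cannot be told apart in bulk RNA.

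Every nuclear complex I gene was more abundant in fused myotubes than in myoblasts. In the WT-labelled libraries all 37 members were called higher at 72 h than at 24 h, where 85.5% of all genes tested were called and 42.2% were called higher. The median log2 fold change of the members was 1.41 (2.66-fold), against -0.0126 for all genes tested. Among the 4980 genes with a mean CPM of at least that of the lowest member 51% were called higher, and among the 342 of these of at most 1000 nt, 28 of which are members, 54.4% were. A call is an edgeR quasi-likelihood p under 0.05 after adjustment by Benjamini and Hochberg's method across all genes tested. The rise ran from 0.70 for Ndufc2 to 2.06 for Ndufa6. In the Glud1KO-labelled libraries the 37 members were also all called higher (87.2% of all genes called, 42.7% higher), with a median of 1.45. All 37 calls were made under each of the 8 other settings and without any 1 library, in both labels. The setting that added near-identical copies changed the counts of Ndufab1 and Ndufb9 alone, by under 1%, so it tests little for the other members. The median was 1.09 in WT with library size as the only scaling, a setting that moved the median of all genes to -0.332, and 1.09 with the length and GC trend removed. Of the markers of other cells, the fibroblast gene Pdgfra was called higher with the members in both labels, at 0.984, 1.43 and 1.07 CPM in WT myoblasts and 2.88, 2.79, 2.41 and 3.05 CPM in WT fused myotubes (1.29 ± 0.21, adjusted p = 2.57e-06), without overlap. It was lower at 48 h, at 0.285, 0.392 and 0.422 CPM (2.89 ± 0.27 from 48 h to 72 h, adjusted p = 1.95e-10). The smooth muscle gene Myh11 was called higher at 72 h than at 24 h in the Glud1KO label, at 0.188, 0.167, 0.298 and 0.4 against 0, 0.0654 and 0 CPM (adjusted p = 0.00161). The fibroblast gene Ly6a fell, from 6.01, 5.49 and 6.18 to 0.0457, 0, 0.0617 and 0.165 CPM in WT. Their part in the members' rise was not tested.

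**Figure D1:**
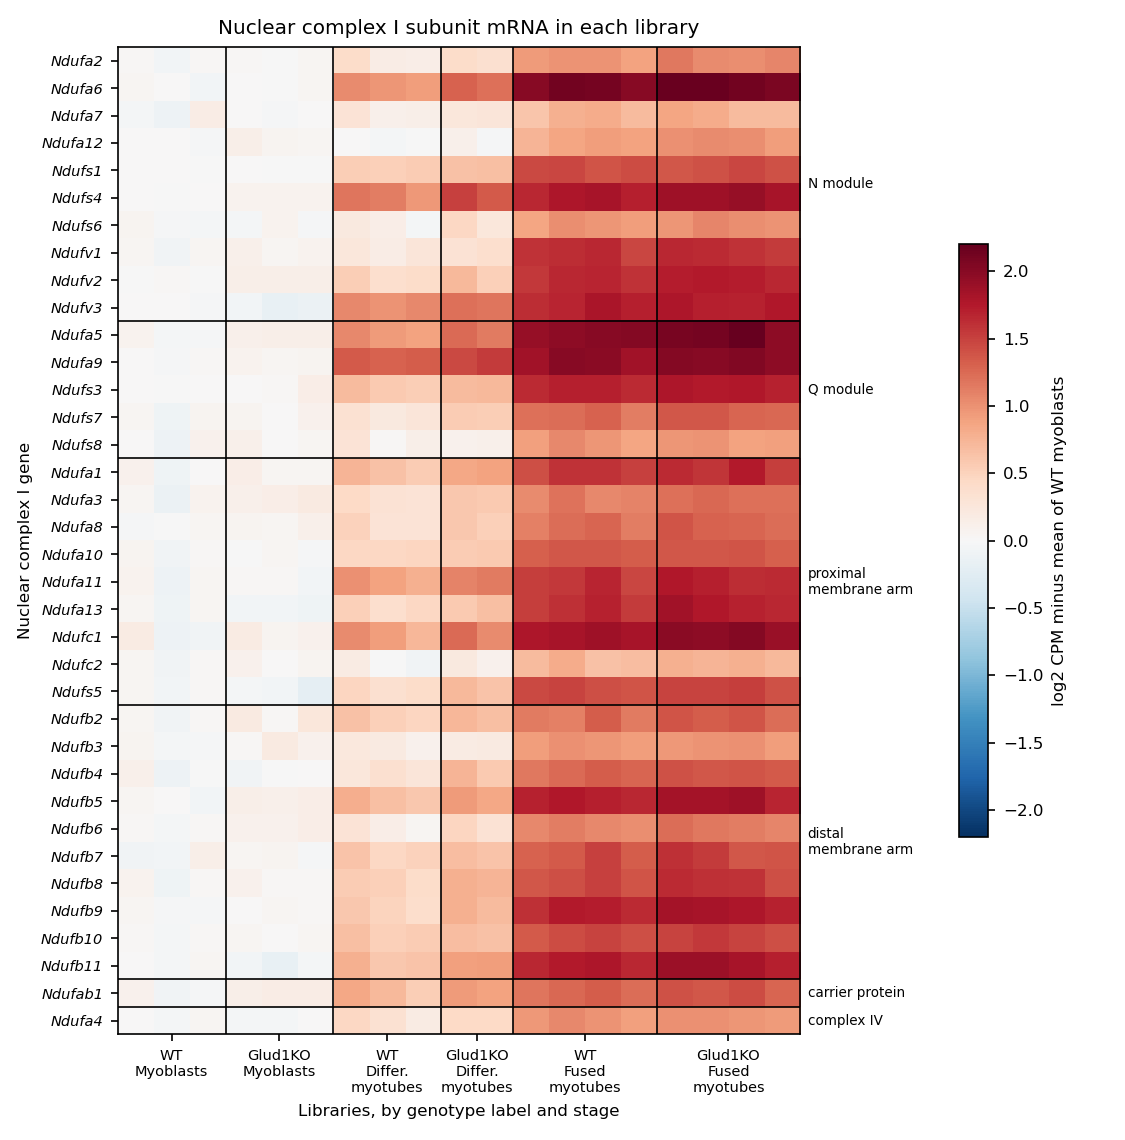
Colour gives log2 CPM of each gene shown (rows, grouped by place in the complex) minus the gene's mean in the WT myoblast libraries, and each column is 1 of the 19 libraries. Both labels turn redder from myoblasts to fused myotubes, with Ndufa6, Ndufa5 and Ndufa9 among the darkest rows and Ndufc2 and Ndufa7 among the palest at 72 h.

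The N module had a median rise of 1.51 over its 10 members between WT myoblasts and fused myotubes. Its largest rise was that of Ndufa6, an accessory subunit of the LYR family that binds the acyl carrier protein, which was at 41.6, 40.7 and 38.8 CPM in the WT myoblasts, 82.9, 78.9 and 76.0 CPM at 48 h and 161, 176, 174 and 162 CPM at 72 h. The 3 stages did not overlap, and the change from 24 h to 72 h was 2.06 ± 0.044 (adjusted p = 3.57e-25). Ndufs4, an accessory subunit whose loss is a known cause of Leigh syndrome, was at 46.5, 46.2 and 46.4 CPM, then 104, 101 and 89.6 CPM, then 147, 159.6, 162 and 152 CPM, with most of its 1.74 rise (1.08) by 48 h. Ndufv3, which sits beside the NADH-binding subunit, followed a like course from 24.7, 24.5 and 24.1 CPM to 51.0, 48.2 and 50.7 CPM and 75.8, 78.4, 84.9 and 79.8 CPM. Ndufv1, which binds flavin and NADH, and its iron-sulfur partner Ndufv2 rose later: 0.22 and 0.44 by 48 h, then 1.36 and 1.18 between 48 h and 72 h, the first step of Ndufv1 being -0.029 with library size alone. Ndufs1, which carries iron-sulfur clusters, rose by 1.43 in all, the zinc-binding Ndufs6 by 0.94, the thioredoxin-fold Ndufa2 by 0.95, Ndufa12 by 0.86 and Ndufa7 by 0.72.

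The Q module had a median rise of 1.52 over its 6 members. Ndufa5, a small accessory subunit of the matrix arm, was at 38.0, 35.0 and 35.2 CPM in WT myoblasts, 74.6, 68.8 and 66.3 CPM at 48 h and 135, 140.3, 145 and 146 CPM at 72 h (1.97 ± 0.051, adjusted p = 3.55e-23). Ndufa9, a member of the short-chain dehydrogenase family that holds a bound NADPH, was at 82.7, 80.7 and 84.0 CPM, then 209, 202 and 207 CPM, then 298, 331, 328 and 297 CPM. It had the largest first step of all members, 1.32 ± 0.043 by 48 h (adjusted p = 9.26e-21), and a smaller second step of 0.60. The core subunits Ndufs3 and Ndufs7, the latter of which carries the cluster nearest to ubiquinone, rose by 1.68 and 1.21. Ndufs8, an iron-sulfur core subunit, rose by 0.95.

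The 9 genes of the proximal membrane arm had a median rise of 1.44, between 0.70 for Ndufc2 and 1.81 for Ndufc1, both small membrane-spanning subunits. Ndufc2 was at 54.9, 50.9 and 54.7 CPM in WT myoblasts and 60.6, 53.4 and 50.9 CPM at 48 h, which overlapped, and at 86.9, 93.7, 83.6 and 85.1 CPM at 72 h. Between them lay Ndufa13 (also known as GRIM-19, 1.59), Ndufa11 (1.55), Ndufa1 (1.52), Ndufs5 (1.44), Ndufa10 (1.34), Ndufa8 (1.18) and Ndufa3 (1.09). Ndufb3, the member with the lowest per-length level, lay between 30.9 and 33.0 CPM in the WT myoblasts, at 37.3, 36.4 and 33.8 CPM at 48 h, and at 60.1, 63.8, 61.8 and 60.1 CPM at 72 h. In the distal arm, to which it belongs, the 10 members had a median rise of 1.39, from 0.95 for Ndufb3 and 1.06 for Ndufb6 to 1.71 for Ndufb11, 1.70 for Ndufb5 and 1.67 for Ndufb9, another LYR protein. Ndufb8, Ndufb10, Ndufb7, Ndufb4 and Ndufb2 rose by 1.41, 1.42, 1.37, 1.25 and 1.18. The acyl carrier protein gene Ndufab1 was at 72.5, 64.4 and 66.1, then 122, 111 and 98.3, then 153, 163, 171 and 159 CPM, a rise of 1.25 ± 0.056. The complex IV protein gene Ndufa4 was at 156, 149 and 159, then 212, 195 and 174, then 299, 320.1, 307 and 290.2 CPM (0.97 ± 0.047). Ndufb1-ps rose by 1.40, within the range of the distal arm members.

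The rise fell into a smaller and a larger step. By 48 h, 34 of the 37 members were called higher in WT, where 85% of all genes were called and 42.4% called higher. The members' median was 0.492. Ndufs6 (0.10 ± 0.059), Ndufa12 (-0.016 ± 0.045) and Ndufc2 (0.033 ± 0.054) were not called (adjusted p = 0.105, 0.749 and 0.575). From 48 h to 72 h all 37 were called higher (75.1% of all genes called, 37.4% higher), with a median of 0.877. In the Glud1KO-labelled libraries 33 were called higher by 48 h (83.7% of all genes called, 41.3% higher), with Ndufa12, Ndufb3, Ndufc2 and Ndufs8 not called, and 37 in the second step (70.2%, 35.8% higher). The medians there were 0.647 and 0.766. By 48 h Myh11 was also called higher in WT (2.42, at no more than 0.598 CPM) and in the Glud1KO label (1.02 and 1.62 CPM), and its part was not tested. The first step depended on the scaling: with library size alone, which moved the median of all genes to -0.231 in WT and to -0.311 in the Glud1KO label, 23 and 27 members were called higher and 3 and 4 lower, and with the length and GC trend removed 28 were called higher and 3 lower in both. Ndufs6 in WT was among those lower in both settings, at -0.15 (adjusted p = 0.0328) and -0.14 (0.0247), with Ndufa12 and Ndufc2. Ndufa7 in the Glud1KO label, called higher above, was called lower with the trend removed (-0.14, adjusted p = 0.0174).

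Per-length levels gave the same order of stages for the sum of the members and placed its single genes over a wide range. The summed TPM of the 37 members was 8304 to 8639 in the WT myoblast libraries, 9885 to 11142 at 48 h and 17188 to 18060 at 72 h. In the Glud1KO-labelled libraries it was 8353 to 8766, 10508 to 11217, and 18045 to 18770. The 2 labels overlapped in these sums at each stage. Ndufa4 had the highest level at each stage, with 992 ± 121, 982 ± 94.7 and 1424 ± 38.1 TPM in WT (mean and SD, n = 3, 3 and 4), and no other member came near it at any stage. The lowest was Ndufb3, a distal arm subunit, with 88.6 ± 2.95, 91.5 ± 5.20 and 144 ± 4.72 TPM on the same n, except that Ndufv3 did not stand clear of it in the WT myoblasts (89.5 ± 2.73 TPM). Ndufa12 went from 440.0 ± 11.6 to 384 ± 3.50 TPM by 48 h, below its myoblast level on this scale, while its CPM hardly moved. At 72 h the upper end in WT after Ndufa4 held Ndufa5 (886 TPM), Ndufc1 (801 TPM), Ndufab1 (773 TPM), Ndufb9 (765 TPM) and Ndufa6 (746 TPM), and the lower end Ndufb2 (232 TPM), Ndufs8 (232 TPM), Ndufb4 (244 TPM) and Ndufc2 (249 TPM). The remaining genes of the N module were at 379.9 (Ndufa2), 389 (Ndufa7), 264 (Ndufs1), 473 (Ndufs4), 298 (Ndufs6), 360.3 (Ndufv1), 460.5 (Ndufv2) and 291 TPM (Ndufv3) in WT fused myotubes, and in the Q module Ndufa9, Ndufs3 and Ndufs7 were at 382, 415 and 337 TPM. In the membrane arm the remaining proximal genes lay between 276 TPM (Ndufa13) and 679 TPM (Ndufs5), with Ndufa3, Ndufa8, Ndufa1, Ndufa11 and Ndufa10 at 304, 307, 381, 528 and 528 TPM. The remaining distal ones lay between 369 TPM (Ndufb6) and 683 TPM (Ndufb8), with Ndufb11, Ndufb7, Ndufb5 and Ndufb10 at 375, 513, 519 and 604 TPM. Each module thus held genes in the upper and in the lower part of the range. The 7 core subunits summed to 2558 TPM (SD 66.1, n = 4) at that stage and the 29 accessory ones, without Ndufa4, to 13769 TPM (SD 314, n = 4).

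**Figure D2:**
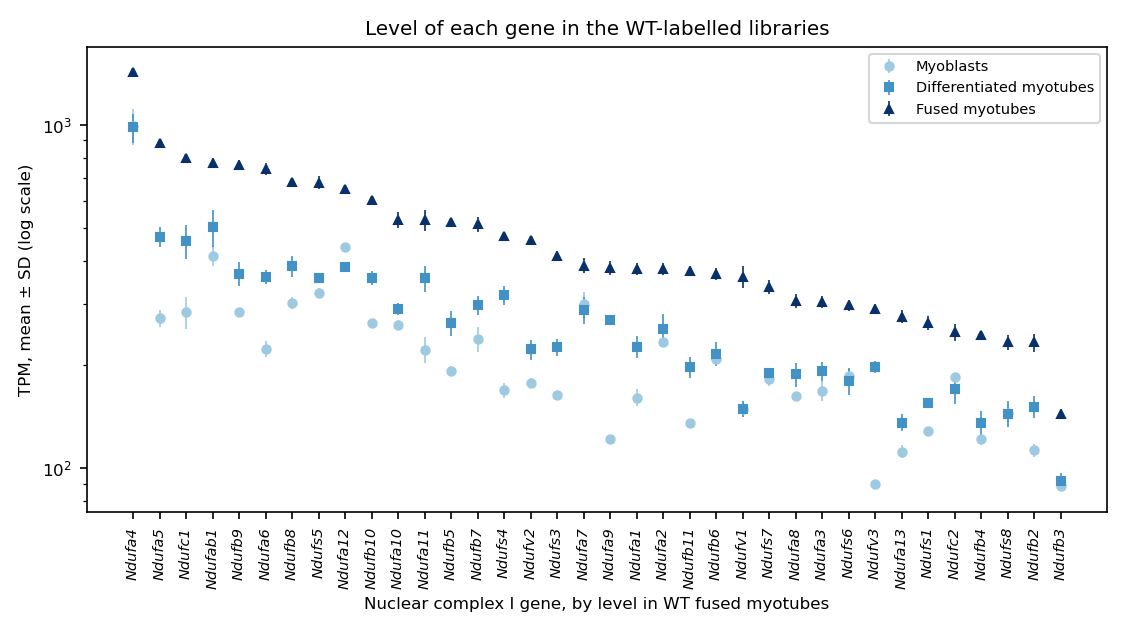
Each point is the mean TPM (log axis) of each member shown over the WT-labelled libraries of a stage, with the SD as error bar (n = 3, 3 and 4), and genes are ordered by their level in fused myotubes. Every gene shown is highest in fused myotubes, whereas for several, such as Ndufa12, Ndufa7 and Ndufc2, the 24 h and 48 h points lie close together or in reverse order.

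The mitochondrially encoded subunits took another course. The 7 mt-Nd genes, which code for the membrane subunits that form the proton-pumping core, summed to 9290 to 11534 TPM in WT myoblasts, 28995 to 35994 TPM at 48 h and 22713 to 26339 TPM at 72 h, so that they were highest at 48 h. All 7 were called higher at 48 h than at 24 h in WT (median log2 fold change 1.99). From 48 h to 72 h 6 were called lower and mt-Nd3 was called higher (0.32), while the 37 nuclear members were all called higher. The share of counts from the mitochondrial genome was 1.475% to 1.8%, 4.001% to 4.767% and 3.025% to 3.554% in the WT libraries of the 3 stages. A poly(A) library captures mitochondrial transcripts by their short tails, and the part of tail length in these values was not tested. In the Glud1KO label the mt-Nd sum was 8537 to 9360, 40678 to 44886 and 21335 to 26038 TPM.

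**Figure D3:**
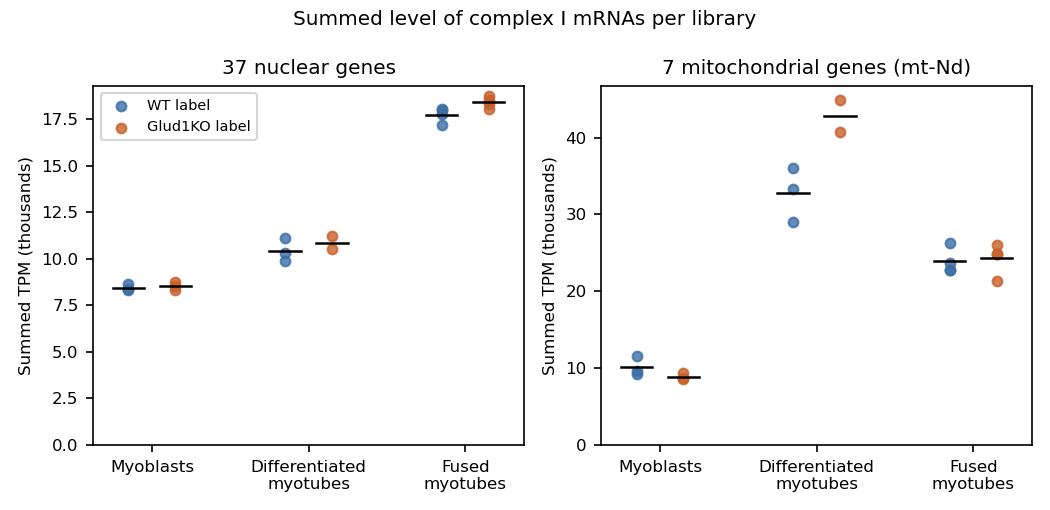
Points are single libraries, with the summed TPM of the 37 nuclear genes (left) and of the 7 mitochondrial mt-Nd genes (right), by stage and label, and black lines mark group means. The nuclear sum is highest in fused myotubes (17188 to 18770 TPM) and the mitochondrial sum in differentiated myotubes.

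Genes around complex I followed in part. Of 17 assembly factors tested, 13 were called higher and 3 lower in WT fused myotubes than in myoblasts, with a median of 0.501. In this comparison, which the counts below share, 85.5% of all genes were called and 42.2% were called higher. The largest rises were those of Ndufaf3 (2.68) and Ndufaf1 (1.62), which act early in assembly, and of Ecsit (1.57). Those called lower were Nubpl, which delivers iron-sulfur clusters (-1.19), Ndufaf2, which gives way to its relative Ndufa12 during assembly (-0.51), and Tmem186 (-0.22). The 4 subunits of complex II, the other entry point for electrons, were all called higher (1.04 to 1.55). Among 11 genes of mitochondrial content and its regulators, 7 were called higher and 4 lower. The estrogen-related receptor gene Esrrg (5.03), the coactivator gene Ppargc1a (3.02) and Esrra (1.43) had the largest rises, and the coactivator gene Pprc1 (-1.08), the import receptor gene Tomm20 (-0.95) and the gene of the transcription factor NRF1 (-0.57) the largest falls. Esrrg was scarce at the start, at 0.216 to 0.457 CPM in WT myoblasts against a mean of 11.8 CPM in WT fused myotubes. Ndufa4l2, a relative of Ndufa4 known from hypoxic cells, did not pass the filter on low counts and was at most at 0.130 CPM.

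Promoters of the members are shown because the genes rose together and because binding sequences of NRF1 and YY1 are known from many genes of the respiratory chain. RefSeq windows (GRCm38.p6, 250 bases before to 50 after the start) were found for 33 members, with 35 windows. Capitals mark matches, on either strand, to the NRF1 motif (GCGCA, any base, then GCGC) or the YY1 motif AANATGGC. Ndufb4, whose window held the most NRF1 matches, Ndufa6, which had the largest rise, Ndufb5 with the most YY1 matches and Ndufc2, which had the smallest rise and no match, lie at chr16:37654319-37654618 (minus strand), chr15:82354242-82354541 (minus strand), chr3:32736813-32737112 (plus strand) and chr7:97399753-97400052 (plus strand), in that order.
Ndufb4: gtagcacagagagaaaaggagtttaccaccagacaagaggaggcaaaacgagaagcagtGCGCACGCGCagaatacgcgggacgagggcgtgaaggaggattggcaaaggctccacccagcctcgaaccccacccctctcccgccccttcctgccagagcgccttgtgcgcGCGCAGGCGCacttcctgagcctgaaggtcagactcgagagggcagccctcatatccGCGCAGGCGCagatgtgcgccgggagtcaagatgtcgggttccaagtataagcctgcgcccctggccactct
Ndufa6: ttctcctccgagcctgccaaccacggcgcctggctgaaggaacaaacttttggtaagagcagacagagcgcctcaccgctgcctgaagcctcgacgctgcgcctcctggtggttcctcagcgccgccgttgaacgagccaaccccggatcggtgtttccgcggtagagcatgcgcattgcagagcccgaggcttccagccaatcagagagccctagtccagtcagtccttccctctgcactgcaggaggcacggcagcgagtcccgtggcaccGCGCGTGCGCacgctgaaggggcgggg
Ndufb5: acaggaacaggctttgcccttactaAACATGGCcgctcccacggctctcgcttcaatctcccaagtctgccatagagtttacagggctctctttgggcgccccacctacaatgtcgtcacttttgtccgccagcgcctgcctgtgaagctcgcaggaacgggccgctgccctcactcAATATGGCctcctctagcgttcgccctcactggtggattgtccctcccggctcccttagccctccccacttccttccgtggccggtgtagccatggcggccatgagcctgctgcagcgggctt
Ndufc2: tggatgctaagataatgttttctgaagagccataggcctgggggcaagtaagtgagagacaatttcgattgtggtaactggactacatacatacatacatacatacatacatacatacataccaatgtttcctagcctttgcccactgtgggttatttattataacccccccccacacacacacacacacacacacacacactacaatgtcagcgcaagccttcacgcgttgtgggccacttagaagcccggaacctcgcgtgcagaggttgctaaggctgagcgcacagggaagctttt
Ndufb4 held 3 NRF1 matches, Ndufa6 held 1, and Ndufb5 held 2 YY1 matches.

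An NRF1 match was in 8 of the 35 member windows (22.9%, 7 genes), against 4.6% of all 32851 windows and 9.12% of the 14200 windows of genes tested. A YY1 match was in 12 (34.3%, 12 genes), against 6.05% and 7.75%. This motif contains ATG, and the windows reach 50 bases past the start, where start codons lie. In all, 18 members had an NRF1 or a YY1 match and 1 of them, Ndufs6, had both. Whether matches went with the size of the rise was not tested. Ndufa13 and Ndufv3, with rises above the members' median, had neither match, while Ndufa7 and Ndufs8, with rises below it, had a YY1 match. Of the other motifs, GGGCGG (SP1) was in 45.7% of member windows against 59.9%, CCGGAAG (ETS factors) in 11.4% against 16.1%, AAGGTCA (ERR) in 8.57% against 3.18%, and the E-box CAGCTG in 11.4% against 15.9%. TATTTATA (MEF2) was in 0 of 35 member windows and in 1.18% of those of genes tested. The median GC content of the windows was 59% for members and 60.3% for genes tested. A match is a run of letters and no measure of binding.

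The transcript make-up of several members changed with stage. In 22 members at least 2 transcripts held over 10% of the gene's estimated count in some group, and the share of the main one was compared between stages with both labels pooled. It passed an exact two-sided permutation test, adjusted over 66 tests, in 6 members between 24 h and 48 h, 6 between 48 h and 72 h and 12 between 24 h and 72 h. The smallest p these group sizes allow are 0.00216, 0.000777 and 0.000333. Between 24 h and 72 h the share rose in 8 and fell in 4.

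Ndufv3 had the largest change apart from Ndufa4. The gene has a short and a long coding form: Ndufv3-202 (493 nt, 104 codons) joins exon 2 to the last exon, and Ndufv3-201 (1582 nt, 468 codons) holds between them a coding exon of 1092 nt, chr17:31527310-31528401 on the plus strand of GRCm38. The junctions tell the 2 forms apart and are printed with 30 bases on each side, the long exon in capitals.
Ndufv3-202, exon 2 to exon 3: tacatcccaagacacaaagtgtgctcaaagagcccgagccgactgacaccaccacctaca
Ndufv3-201, exon 2 to exon 3: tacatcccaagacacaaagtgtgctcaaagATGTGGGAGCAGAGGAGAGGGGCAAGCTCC
Ndufv3-201, exon 3 to exon 4: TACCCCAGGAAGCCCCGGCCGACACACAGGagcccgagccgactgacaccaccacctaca
The short form held 62.6%, 67.2% and 67.4% of the Ndufv3 count in WT myoblasts, 82.5%, 79.7% and 79.2% at 48 h, and 82.7%, 82.8%, 82.6% and 82.5% at 72 h. In the Glud1KO label it held 66.4%, 66.7% and 66.3%, then 83.7% and 83.2%, then 84.3%, 83.5%, 82.1% and 81.0%. Every library of the later stages thus lay above every myoblast library, in both labels. Pooled, the share was 66.1% ± 1.75 (SD, n = 6) at 24 h and 81.7% ± 2.06 (SD, n = 5) at 48 h (exact permutation test, adjusted p = 0.01299), and it was 82.7% ± 0.977 (SD, n = 8) at 72 h (exact permutation test against 24 h, adjusted p = 0.00641). Per length, the short form went in WT from 80.5 to 187 and 278 TPM, and the long form from 8.40 to 8.51 and 11.8 TPM, so that the rise of the gene was mostly that of the short form.

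Smaller shifts passed the same test. The share of Ndufb2-202 rose from 49.5% ± 1.55 (SD, n = 6) at 24 h to 60.1% ± 1.04 (SD, n = 8) at 72 h (exact permutation test, adjusted p = 0.00641), without overlap. Ndufs8-205 fell from 72.1% ± 2.02 (SD, n = 6) to 65.6% ± 2.16 (SD, n = 8), also without overlap (exact permutation test, adjusted p = 0.00641). Ndufab1-206 fell from 30.5% ± 1.06 (SD, n = 6) to 24.7% ± 0.998 (SD, n = 5) at 48 h and was back at 30.2% ± 1.08 (SD, n = 8) at 72 h. For Ndufa4, the estimate was unstable: Ndufa4-204, which codes for the same protein as Ndufa4-205, held 43.1%, 44.3%, 43.7% and 44.5% of the count in 4 of the 6 myoblast libraries, 2 of each label, and was listed at 0 in the other 2 and in all 13 later libraries. The passing share of Ndufa4-205 between 24 h and 72 h rests on these myoblast values. The main transcript of Ndufa10, Ndufa3, Ndufs4 and Ndufs7 is annotated as not protein coding, so the shares of these 4 genes say little of the coding form.

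**Figure D4:**
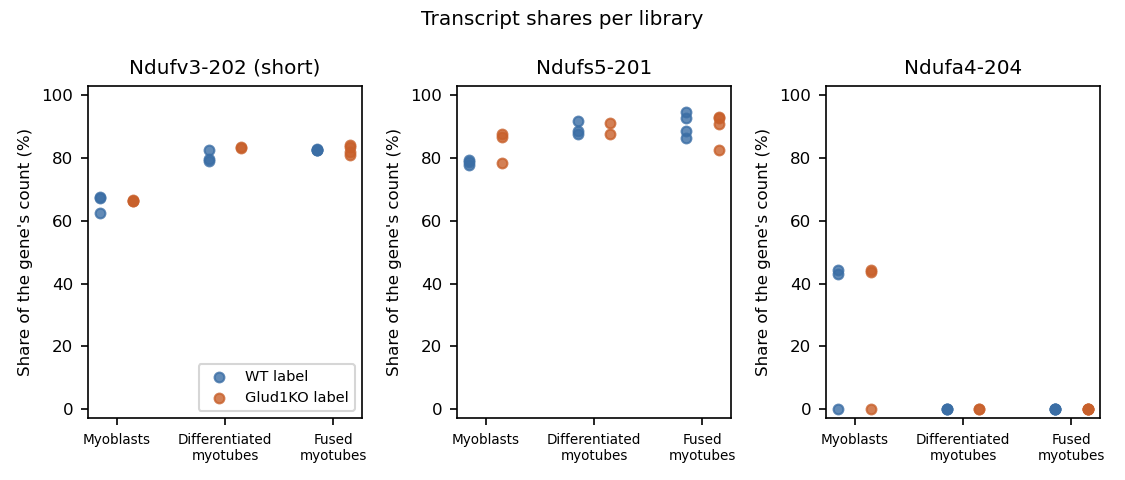
Points are single libraries, with the percentage of the gene's estimated count held by the named transcript, by stage and label. Ndufv3-202 goes from 62.64 to 67.44% in myoblasts to at least 79.23% later, Ndufs5-201 spreads more widely, and Ndufa4-204 is either at 0 or at 43.12 to 44.46%.

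The Glud1KO label went with small differences at 24 h that did not pass the test. In myoblasts none of the 37 members was called in edgeR, where 11.6% of all genes were called and 4.86% called higher. The smallest adjusted p was 0.075 (Ndufv2, 0.13 ± 0.048), 10 members had an unadjusted p under 0.05 (8 higher, 2 lower), and DESeq2 called 0 after adjustment, with 6 at an unadjusted p under 0.05. Log2 fold changes ran from -0.12 for Ndufv3 to 0.15 for Ndufb2, and 27 of 37 were above 0. Ndufv3 was at 24.7, 24.5 and 24.1 CPM in WT and 23.3, 21.9 and 22.3 CPM in the Glud1KO label, without overlap (adjusted p = 0.133). Ndufab1 was at 72.5, 64.4 and 66.1 against 74.1, 75.3 and 75.6 CPM, with the Glud1KO-labelled libraries higher (0.15 ± 0.060, adjusted p = 0.113), and it was the 1 member called when low counts were not filtered. Ndufs4 was at 46.5, 46.2 and 46.4 against 48.7, 49.1 and 48.9 CPM, without overlap but by little (0.078 ± 0.053, adjusted p = 0.397). Ndufa4 did not separate, with 150.2, 149 and 155 CPM in the Glud1KO label. Beside these values, 6 of the 9 myogenic markers were called lower in the Glud1KO-labelled myoblasts (median of the 9, -0.462), and mt-Nd5 was called lower (-0.37), 1 of 7 mt-Nd genes, against 0 with the effective-length offset, 3 with the replicate block, 5 without the filter and 6 with the trend removed. The pericyte gene Rgs5 was called lower, at 38.6, 36.6 and 40.8 CPM in WT and 31.3, 32.4 and 33.7 CPM in the Glud1KO label (-0.25 ± 0.068, adjusted p = 0.0147), as was the fibroblast gene Ly6a, at 6.01, 5.49 and 6.18 against 3.18, 3.30 and 2.75 CPM (-0.94 ± 0.17, adjusted p = 0.000288). Neither overlapped between the labels, and neither was called with the effective-length offset (adjusted p = 0.274 and 0.0586). Their part in the members' values was not tested.

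At 48 h, by contrast, many members were higher in the Glud1KO-labelled libraries. Of the 37, 23 were called higher and 0 lower in edgeR, where 25.2% of all genes were called and 11% called higher. DESeq2 called 26 members. The median log2 fold change was 0.184 (1.14-fold), against -0.0117 for all genes, and 36 of 37 were above 0. The members are abundant and short, with a median length of 717 nt against 2708 nt for genes tested. Among the 4980 genes at least as abundant as the lowest member 20.3% were called higher, and among the 342 short ones of these 36.8% were. The calls covered 6 of 10 genes of the N module, 3 of 6 of the Q module, 7 of 9 of the proximal arm, 6 of 10 of the distal arm and Ndufab1, or 3 of the 7 core and 20 of the 29 accessory subunits.

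The largest difference at 48 h was that of Ndufb4, a distal arm subunit, at 48.6, 52.3 and 49.0 CPM in WT and 68.3 and 60.6 CPM in the Glud1KO label. Both Glud1KO-labelled libraries lay above the 3 WT ones (0.37 ± 0.061, adjusted p = 5.87e-05). Ndufs4 was at 104, 101 and 89.6 against 131 and 118 CPM (0.34 ± 0.055, adjusted p = 3.54e-05), and Ndufa6 at 82.9, 78.9 and 76.0 against 99.2 and 93.7 CPM (0.28 ± 0.050, adjusted p = 0.000109). Neither gene overlapped between the labels. These 3 kept their calls without any 1 library, with adjusted p of at most 0.00944. Ndufab1 was at 122, 111 and 98.3 against 129 and 125 CPM, higher in both Glud1KO-labelled libraries by a narrow margin (0.21 ± 0.065, adjusted p = 0.0198). Ndufv3 was at 51.0, 48.2 and 50.7 against 56.5 and 55.6 CPM (0.17 ± 0.050, adjusted p = 0.015). Both of these lost their call without either Glud1KO-labelled library (adjusted p = 0.147 and 0.0559 for Ndufab1, 0.107 and 0.062 for Ndufv3), and also without WT library 3 for Ndufab1 (0.146) and WT library 2 for Ndufv3 (0.0612). Ndufa4 overlapped, at 212, 195 and 174 against 210.0 and 209 CPM (0.11 ± 0.056, adjusted p = 0.144), and was called without WT library 1 (0.19, adjusted p = 0.00795).

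The other members called at 48 h, in the order of the modules, were Ndufs1 (0.12), Ndufs6 (0.25), Ndufv2 (0.18), Ndufa5 (0.24), Ndufa9 (0.18) and Ndufs7 (0.28) of the matrix arm. In the proximal arm they were Ndufa1 (0.22), Ndufa3 (0.23), Ndufa8 (0.18), Ndufa11 (0.23), Ndufa13 (0.17), Ndufc1 (0.25) and Ndufs5 (0.27). In the distal arm they were Ndufb5 (0.21), Ndufb6 (0.23), Ndufb8 (0.27), Ndufb9 (0.24) and Ndufb11 (0.25). Of the members not called, Ndufs8 was the only one below 0 (-0.057 ± 0.069) and Ndufb3 the closest to it (0.0055 ± 0.059), itself below 0 with the effective-length offset (-0.017), library size alone (-0.051), the trend removed (-0.065) or the replicate block (-0.0047). Ndufa2, Ndufa7, Ndufa12, Ndufv1, Ndufs3, Ndufa10, Ndufc2, Ndufb2, Ndufb7 and Ndufb10, also not called, lay between 0.058 for Ndufa12 and 0.15 for Ndufb2. Ndufb1-ps was also called higher (0.28).

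The count at 48 h depended on the processing and on the libraries. It was 13 with library size alone, 14 with the effective-length offset and 14 with the length and GC trend removed, where Ndufs8 was called lower and 31 members lay above 0, and 11 without Glud1KO-labelled library 1, which leaves a single library assumed to vary like the other groups. The median stayed above that of all genes in each of these, from 0.0926 with the length and GC trend removed to 0.171 with the effective-length offset. The split by place moved as well: with library size alone, the effective-length offset and the trend removed, in that order, 3, 2 and 1 of the 9 proximal genes were called higher, against 4, 6 and 6 of the 10 distal ones, and 12, 13 and 11 of the 29 accessory subunits against 1, 1 and 3 of the 7 core ones. Ndufa6, Ndufs4, Ndufa9, Ndufs7, Ndufb4, Ndufb8, Ndufb9 and Ndufb11 were called higher in each of the 8 other settings. In summed CPM the members gave 3613.5 to 3945.6 in the 3 WT libraries and 4152.6 to 4252.2 in the 2 Glud1KO-labelled ones, without overlap, whereas the summed TPM ranges given above overlapped. The mt-Nd genes moved the same way at 48 h: 6 of 7 were called higher, with 0.55 for mt-Nd2, 0.52 for mt-Nd4, 0.51 for mt-Nd4l, 0.48 for mt-Nd1, 0.48 for mt-Nd5 and 0.47 for mt-Nd3, and 0.31 ± 0.19 for mt-Nd6 without a call. The mitochondrial share of counts was 5.505% to 5.914% in the Glud1KO-labelled libraries, above the WT range. Of the myogenic markers, the fast troponin gene Tnnt3 was called higher (0.39) and Pax7 (-0.92), Myod1 (-0.31) and Myf5 (-0.19), known as markers of earlier myogenic cells, lower. Of the markers of other cells, the fibroblast gene Ly6a was called lower, at 0.711, 0.305 and 0.493 CPM in WT and 0 and 0.0524 CPM in the Glud1KO label (adjusted p = 0.00105), and the smooth muscle myosin gene Myh11 higher, at 0.569, 0.479 and 0.598 against 1.02 and 1.62 CPM (1.25 ± 0.45, adjusted p = 0.0418). Both were scarce, neither overlapped between the labels, and Myh11 was not called with library size alone (adjusted p = 0.0527) or the effective-length offset (0.172). Their part in the members' values was not tested.

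**Figure D5:**
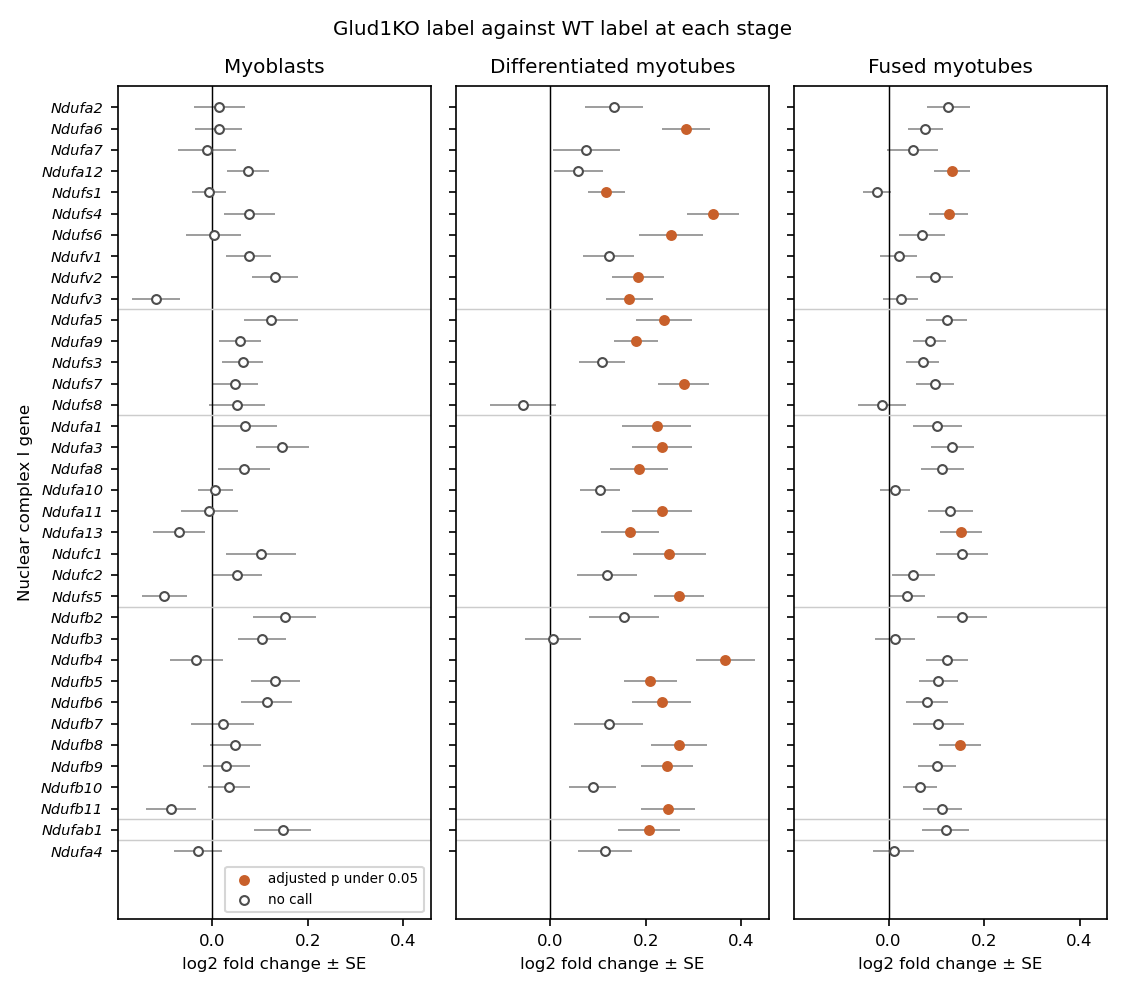
Points give the log2 fold change of each member shown, Glud1KO label against WT label, with its SE, at 24 h, 48 h and 72 h. Filled points passed the test, which was so for 0, 23 and 4 members from left to right, and in the middle panel all but Ndufs8 lie above 0.

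In fused myotubes the differences were smaller. At 72 h 4 of the 37 members were called higher and 0 lower, where 13% of all genes were called and 6.32% called higher, and among the abundant and the short abundant genes 9.74% and 14.6% were called higher. The members' share of 10.8% was near these. The median was 0.0978, against -0.00625 for all genes, with 35 of 37 above 0, and it was 0.0497 with 29 above 0 when the length and GC trend was removed. Ndufa13 was at 268, 286, 304 and 273 CPM in WT and 338, 319, 303 and 295 CPM in the Glud1KO label (0.15 ± 0.044, adjusted p = 0.0226). Ndufb8 was at 261, 271, 287 and 265 against 315, 309.9, 304 and 272 CPM (0.15 ± 0.044, adjusted p = 0.0243). Both overlapped between the labels, since the lowest Glud1KO-labelled library lay below the highest WT one. Ndufa12, an N module subunit, was at 181, 197, 204 and 199 against 216, 220.4, 217 and 202 CPM and also overlapped (0.13 ± 0.038, adjusted p = 0.018), and with the trend removed it was not called (0.075, adjusted p = 0.108). Ndufs4, at 147, 159.6, 162 and 152 against 169.6, 168, 175 and 163 CPM, did not overlap (0.13 ± 0.041, adjusted p = 0.0445), and it was not called with the replicate block (adjusted p = 0.0587) or library size alone (0.0691). Of these 4, all but Ndufa12 were among those called at 48 h.

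The 4 calls at 72 h rested on single libraries. None was made without WT library 1 or Glud1KO-labelled library 2, 1 was made without WT library 4 or Glud1KO-labelled library 1 or 3, and 9 and 10 were made without WT library 3 and Glud1KO-labelled library 4. The count was 7 with DESeq2 size factors, 10 without the filter on low counts and 0 with the effective-length offset, and 20 members had an unadjusted p under 0.05, all of them higher. Ndufa4 (0.011 ± 0.043) and Ndufv3 (0.026 ± 0.037), both below 0 with the trend removed, were not called, nor was Ndufab1 (0.12 ± 0.049, adjusted p = 0.115). Of the mt-Nd genes only mt-Nd3 was called higher (0.36). Of the 9 myogenic markers Myf5 was called, and it was lower in the Glud1KO label, at 125, 128, 129 and 118 CPM in WT and from 99.2 to 101.8 CPM in the 4 libraries of the Glud1KO label (-0.31 ± 0.040, adjusted p = 3.18e-06), without overlap. Among the tested markers of other cells the smallest unadjusted p in edgeR was 0.204 (Ly6a). The part of Myf5 in the members' values was not tested.

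The difference between the labels was itself tested between stages. Taken with its sign, Glud1KO against WT, it rose from 24 h to 48 h in 10 of the 37 members (19.1% of all genes called, 7.78% higher). They were Ndufs4, Ndufs6, Ndufa6 and Ndufv3 of the N module, Ndufs7 of the Q module, Ndufa13 and Ndufs5 of the proximal arm, and Ndufb4, Ndufb9 and Ndufb11 of the distal arm. In some of them the sign was reversed, as in Ndufv3 (-0.12 to 0.17) and Ndufs5 (-0.10 to 0.27). The smallest adjusted p was that of Ndufs5, an intermembrane-space subunit with twin cysteine motifs, which was at 55.2, 51.4 and 54.5 against 52.0, 51.5 and 46.9 CPM at 24 h, 74.4, 68.6 and 70.7 against 88.1 and 83.4 CPM at 48 h and 147, 151, 144 and 141 against 149.7, 151, 154 and 142 CPM at 72 h, each time WT first. The Glud1KO-labelled values thus overlapped the WT ones at 24 h, lay above them at 48 h and overlapped them again at 72 h. The change of the difference was 0.37 ± 0.070 (adjusted p = 0.000385), and for Ndufb4 and Ndufb11 it was 0.40 ± 0.083 and 0.33 ± 0.077 (adjusted p = 0.000917 and 0.00259). Ndufb4 was at 44.1, 37.7 and 40.7 CPM in WT and 38.7, 40.3 and 41.1 CPM in Glud1KO-labelled myoblasts, overlapping. Ndufb11 was at 67.8, 65.6 and 69.5 against 64.8, 60.6 and 65.8 CPM at 24 h, overlapping, and at 116, 103 and 104 against 126 and 129 CPM at 48 h, with both Glud1KO-labelled libraries higher. At 72 h it was at 214, 228, 231 and 214 against 249, 249, 238 and 222 CPM and overlapped again. Ndufs5, Ndufb4 and Ndufb11 were called in each of the 8 other settings. With the length and GC trend removed 6 members were called higher and Ndufs8 was called lower (-0.21, adjusted p = 0.0288 in edgeR), with Ndufs1 gained and Ndufa6, Ndufv3, Ndufs6, Ndufs7 and Ndufb9 no longer called. The 10 calls fell to 5 with library size alone and to 6, 6 and 5 without WT myoblast library 1, WT myoblast library 3 and Glud1KO-labelled 48 h library 1.

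From 48 h to 72 h the difference became smaller in 5 members (14.8% of all genes called, 6.53% lower): Ndufs1, Ndufs4 and Ndufa6 of the N module, Ndufs5, and Ndufb4. For Ndufs5, Ndufa6 and Ndufb4 the changes were -0.23 ± 0.064, -0.21 ± 0.062 and -0.24 ± 0.076 (adjusted p = 0.015, 0.0236 and 0.0302). Ndufs5 was not called with the trend removed (-0.14, adjusted p = 0.131) or the effective-length offset (0.104), nor Ndufa6 with the trend removed (0.0566), while Ndufb4 was called in both settings. Ndufb4 was at 90.7, 96.6, 103 and 98.5 CPM in WT and 108, 105, 107 and 104 CPM in Glud1KO-labelled fused myotubes, and Ndufa6 at 161, 176, 174 and 162 against 183, 182, 175 and 170.4 CPM. All 5 were among the 23 called at 48 h, a comparison that shares those libraries. No call was left with library size alone or without Glud1KO-labelled 48 h library 1, 1 without WT 48 h library 3, 2 with the effective-length offset, and 3 with the length and GC trend removed or without WT 72 h library 2 or 3 or Glud1KO-labelled 72 h library 2 or 4. Between 24 h and 72 h Ndufa13 alone was called (0.22 ± 0.070, adjusted p = 0.0425, 10.3% of all genes called, 5.75% higher), with levels of 97.1, 88.3 and 96.4 CPM in WT against 90.2, 90.3 and 88.2 CPM in Glud1KO-labelled myoblasts, which overlapped, and of 136, 121 and 129 against 139.9 and 148 CPM at 48 h, which did not. That single call was lost with the effective-length offset (adjusted p = 0.158) and without any 1 of WT myoblast libraries 1 and 3, WT 72 h libraries 1, 2 and 4, the 3 Glud1KO-labelled myoblast libraries, or Glud1KO-labelled 72 h libraries 1 and 2, and 2 members were called without WT 72 h library 3 or Glud1KO-labelled 72 h library 4. Ndufb11 (0.20 ± 0.067, adjusted p = 0.0557) and Ndufv3 (0.14 ± 0.062, adjusted p = 0.152) came next without passing. Ndufb11 was called with DESeq2 size factors (adjusted p = 0.0314), without the filter on low counts (0.0321), in DESeq2's Wald test (0.0191), with the replicate block (0.0472) and with the length and GC trend removed (0.0343).

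Some assembly factors and complex II genes also differed between the labels. Of 17 assembly factors 2 were called higher at 24 h, 4 at 48 h and 4 at 72 h, and none lower in edgeR. Their shares called, all of them higher, were 11.8%, 23.5% and 23.5% in that order. Of all genes 4.86%, 11% and 6.32% were called higher, and 11.6%, 25.2% and 13% were called in either direction. The shares at 24 h and 48 h were thus near those of all genes called in either direction and above those called higher. With the effective-length offset 0, 2 and 0 were called. Those called at 24 h were Ndufaf4 (0.25) and Foxred1 (0.18), which both act in the assembly of the complex. At 48 h the largest were Tmem126b, of the membrane-arm assembly complex (0.37), Ndufaf4 (0.30) and Foxred1 (0.28), and at 72 h Ndufaf3 (0.18), Tmem70 (0.17) and Tmem126b (0.14). In complex II, Sdha, Sdhb and Sdhd were called higher at 48 h (0.13 to 0.15) and Sdhb at 72 h (0.16), or 75% and 25% of the 4 genes. At 24 h 0 of 4 were called. The 3 calls at 48 h fell to 0 with library size alone, 1 with the effective-length offset and 2 with the trend removed or no filter. Of the 11 genes of mitochondrial content and its regulators 2 were called at each stage (18.2%), against 11.6%, 25.2% and 13% of all genes. At 24 h Nrf1 (0.15) and Tfam (0.13) were called higher, and at 48 h Esrrg (0.60) and Esrra (0.18). At 72 h Esrrg was called higher (0.33) and Pprc1 lower (-0.22). The call of Tfam was lost in 6 of the 8 other settings and that of Nrf1 in 3, that of Esrra with library size alone (adjusted p = 0.0964), and the 72 h calls with the effective-length offset.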

How the data were processed

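Poly(A)-selected libraries of primary mouse myoblasts were sequenced in 19 samples. Per the submitters' processing notes, bcl2fastq 2.20, fastp 0.20.0, kallisto 0.46.1, edgeR 3.36 and GRCm38.p6 were used. Each deposited file lists 121843 transcripts with the authors' estimated count, TPM, length and effective length, per the file headers. Of these transcripts, 121018 matched GENCODE M21 (120744 with the same length), and the other 825, with 0.255% to 0.507% of all counts, were left out. Estimated counts were summed over 35598 genes and rounded to whole numbers, and TPM was summed likewise.

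A model with 1 coefficient per group was fitted to 15123 genes with edgeR 4.0.16 (R 4.3.3, limma 3.58.1, filterByExpr, TMM, quasi-likelihood test), for 12 comparisons, with Benjamini-Hochberg adjustment over all genes and a threshold of 0.05. The script was tested on simulated data first. Shares of main transcripts were compared with exact permutation tests (Python 3.11.15). Alternatives were DESeq2 1.42.0 and its size factors, library size alone, no filter, an effective-length offset, removal of a length and GC trend, a replicate block, addition of near-identical copies (blastn 2.17.0, at least 95% identity over 150 nt, found for Ndufab1 and Ndufb9 at under 1% of their counts) and leaving out each library. Replicate libraries differed beyond sampling noise (chi-square per degree of freedom 2.1 to 7.39). Strand use is not given in the sources used here.

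Members and lists were chosen with earlier results of these data known. Values in every library are given for the 3 members with the largest called changes in each comparison of labels and in 2 WT stage comparisons, the 3 with the smallest adjusted p in each test of a changed difference, the highest and the lowest member by TPM, and Ndufa4, Ndufab1, Ndufv3 and Ndufs4; a few others were added after their values were seen. 1 member is counted in the totals and is not reported here by name.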

Additional observations from a re-analysis of the deposited data

Results flagged for a closer look

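A single library stood away from the others of its group for 2 genes. Ndufa3, a small proximal membrane arm subunit, was at 54.77 CPM in Glud1KO-labelled fused myotube library 2 and at 52.75 to 52.88 CPM in the other 3. Ndufb2, a distal arm subunit, was at 61.73 CPM in WT fused myotube library 3 and at 52.6 to 53.97 CPM in the other 3. The gap to the nearest library was 0.933 and 0.849 of the group's range, above Dixon's limit for 4 libraries. These were 2 of 74 groups looked at, and chance alone gives about 1 in 20.

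The difference between the labels (log2, Glud1KO against WT) changed between 24 h and 48 h in 10 members by a test of the change itself. In the N module the changes were 0.28344 for Ndufv3 (edgeR adjusted p = 0.00505), 0.27097 for Ndufa6 (0.00671), 0.26281 for Ndufs4 (0.016) and 0.2486 for Ndufs6 (0.0487). In the Q module Ndufs7 changed by 0.2316 (0.023). In the membrane arm the changes were 0.36912 for Ndufs5 (0.000385), 0.23645 for Ndufa13 (0.0413), 0.39963 for Ndufb4 (0.000917), 0.33333 for Ndufb11 (0.00259) and 0.21516 for Ndufb9 (0.0398). Between 48 h and 72 h the difference changed by -0.24301 for Ndufb4 (0.0302), -0.23094 for Ndufs5 (0.015), -0.21442 for Ndufs4 (0.0357), -0.20761 for Ndufa6 (0.0236) and -0.14134 for Ndufs1 (0.0497). Between 24 h and 72 h it changed by 0.22199 for Ndufa13 (0.0425). The 48 h libraries enter both of the first 2 tests with opposite sign, so the genes found in both are not independent findings.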

How the results depend on the processing

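The 37 calls between 24 h and 72 h and between 48 h and 72 h, in both labels, were made under every alternative run. Some values of members near 0 changed sign: Ndufb3 at 48 h was at -0.017 with the effective-length offset, -0.051 with library size alone, -0.065 with the length and GC trend removed and -0.0047 with the replicate block. At 72 h Ndufa4 was at -0.018 and Ndufv3 at -0.021 with the trend removed, and Ndufa4 at -0.011 without WT library 4. For the 12 comparisons, with members called higher unless stated: at 24 h the label comparison gave 1 without the filter. At 48 h it gave 13 with library size alone, and 14 with the effective-length offset or the length and GC trend removed, the last with 1 lower. At 72 h it gave 7 with DESeq2 size factors, 10 without the filter and 0 with the effective-length offset. From 24 h to 48 h, 3 were lower in WT with library size alone or the trend removed, and 4 and 3 in the Glud1KO label. The changed difference from 24 h to 48 h was called in 5 with library size alone and in 7, 1 of them lower, with the trend removed. From 48 h to 72 h it was called in 0 with library size alone, 2 with the effective-length offset and 3 with the trend removed. From 24 h to 72 h it was called in 2 with DESeq2 size factors, no filter, the DESeq2 Wald test, the replicate block or the trend removed, and in 0 with the effective-length offset. Glud1 was at -0.25992, -0.31242 and -0.33564 (log2) with the effective-length offset at 24 h, 48 h and 72 h, and at -0.14306 with library size alone at 48 h. Leaving out 1 library gave 11 to 28 at 48 h (11 without Glud1KO library 1), 0 to 10 at 72 h (0 without WT library 1 or Glud1KO library 2, 10 without Glud1KO library 4), and 5 to 14, 0 to 7 and 0 to 2 for the changed differences in the order above. An arm left with 1 library was assumed to vary like the other groups. The cause of these shifts was not tested.

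Replicate numbers did not pair the libraries: over 41 pairs with the same number, deviations from the group means correlated at r of -0.0536 to 0.0563. The replicate block gave 0, 24 and 5 members called for the labels at 24 h, 48 h and 72 h, and 9, 4 and 2 for the changed differences. Over all genes, the share of calls that were higher was 42.1% at 24 h but 29.3% with DESeq2 size factors, 43.9% at 48 h but 27% with library size alone, and for the changed differences 40.7%, 55.9% and 55.8% but 26.3% and 75% with library size alone (the first 2) and 65.9% with DESeq2 size factors (the last). Of the named genes' values under alternatives, 450 kept their side of the threshold, 59 lost a call and 10 gained one. With 2 to 4 libraries a group, single calls at differences of 0.1 to 0.2 (log2) are at the edge of what these data resolve.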
